A study of Drosophila melanogaster with 9 samples.

Results

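The genes described here encode the Imd and Toll pathways of fly immunity and the antimicrobial peptides that these pathways induce. They were chosen by 34 gene symbols, of which 33 matched an identifier among the 17489 genes counted. These 33 comprise 8 recognition genes, 7 genes of Imd signalling, 8 genes of Toll signalling and 10 effector peptide genes, the first 3 sets being called pathway components. Drs, the remaining effector symbol, was not analysed here.

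RNA abundance was measured in central brains of male w1118CS flies of Drosophila melanogaster, with 10 brains pooled in each sample and 3 samples per condition. Fasted flies were wet-starved, that is, held with water but no food, for 20 h from 5 PM, and refed flies began the same fast and received 400 mM D-glucose at 9 AM for 2 h. Sated flies kept their food until 1 h of wet starvation before dissection. All flies were aged to 7 days, every sample title carries CD, the study's abbreviation for its control diet, and the sample records name no infection or other immune challenge.

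In flies, peptidoglycan recognition proteins (PGRPs) detect bacterial cell wall fragments. The Imd pathway runs from membrane and cytosolic PGRPs through an adaptor complex to the NF-kappaB factor Relish, whereas the Toll pathway runs from the secreted ligand Spatzle through the Toll receptor to the NF-kappaB factors Dorsal and Dif. Both end in the transcription of small secreted peptides that kill microbes, made mainly by the fat body and also by haemocytes, epithelia and glia, and many of the negative regulators of Imd are themselves targets of Relish.

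Samples held between 4957138 and 7897838 reads counted on the gene strand. The share of stranded gene counts that fell on the opposite strand was 9.59% to 12.4% in 6 libraries. It reached 20.6% in replicate 2 of the sated samples, and 24.6% and 28.5% in replicates 1 and 2 of the fasted samples. Opposite-strand reads outnumbered own-strand reads for PGRP-LB, PGRP-LF, PGRP-SA, PGRP-SD, PGRP-SC2, AttB and Def, so counts of these 7 genes are uncertain. Levels are in CPM, which corrects each count for the size of its library, and those of different genes are compared only as RPKM, which is CPM per kilobase of exon. A count of 3, taken as the smallest that can be read, was worth 0.383 to 0.601 CPM, and this limit covers counting error only. Markers of the dissected tissue were abundant, with neuronal markers summing to 6194 to 7195 CPM and glial markers to 1958 to 2262 CPM. The genes listed as retinal markers summed to 1257 to 2149 CPM. Of these, norpA had means of 729.0 CPM in refed, 854.3 CPM in sated and 749.1 CPM in fasted brains. ninaE ranged from 2.76 CPM in a refed to 291.6 CPM in a sated sample. Whether this RNA came from retinal tissue was not tested. In pooled tissue, fewer cells of a type and less RNA per cell cannot be told apart.

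The summed level of the pathway components was similar in all samples, while that of the effector peptides differed widely and was highest in sated brains. The 23 components together summed to between 605.6 and 665.2 CPM in the 9 samples, a highest-to-lowest ratio of 1.10. Abundant genes such as Tl and Dif weigh most in this sum, so it does not show the spread of scarce components such as PGRP-SB1. The 10 effector peptides together summed to 3.76, 5.26 and 3.29 CPM in the refed samples, to 9.85, 20.4 and 54.8 CPM in the sated samples, and to 18.7, 4.21 and 3.33 CPM in the fasted samples. The sated sums all lay above the refed sums, and the fasted sums overlapped both.

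**Figure D1:**
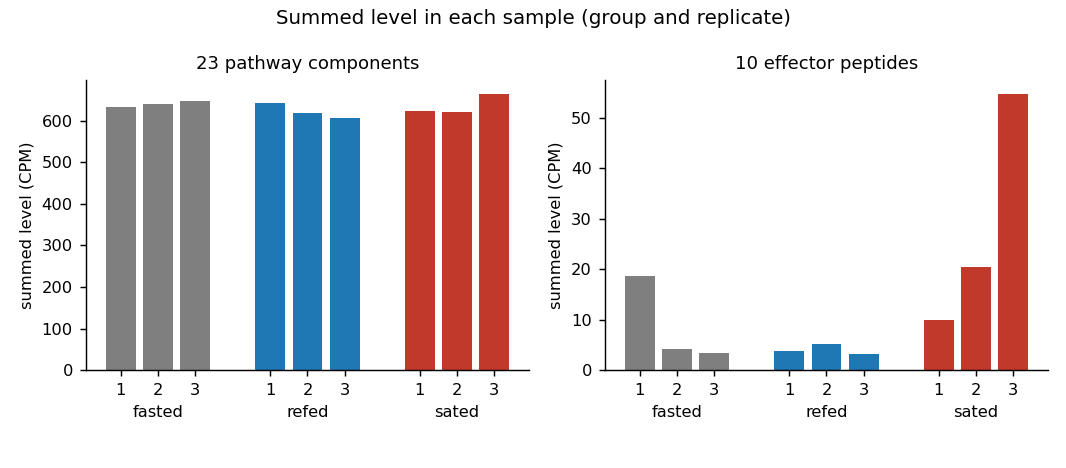
Summed level in CPM of the 23 pathway components (left) and the 10 effector peptides (right), 1 bar for each of the 9 samples, by condition and replicate, on axes starting at 0. The component sums lie between 605.6 and 665.2 CPM, whereas the effector sums range from 3.29 CPM in refed replicate 3 to 54.8 CPM in sated replicate 3.

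Each pair of conditions was compared with edgeR's quasi-likelihood test, and p-values were adjusted over all genes tested. Between refed and fasted brains, 0 of the 19 members that passed the count filter had an adjusted p under 0.05, against 0.111% of all genes tested. Without adjustment 3 members had p under 0.05, against 6.77% of all genes, and DESeq2 called 0. Between sated and fasted brains 0 of 23 members passed the adjusted threshold, against 0.268% of all genes. Here 5 had an unadjusted p under 0.05, against 9.72%, and DESeq2 called 1. Between refed and sated brains 1 of 22 members passed the adjusted threshold, against 0.179% of all genes. It was AttC, and 5 members had an unadjusted p under 0.05, against 11.5%. The comparisons share samples, since each condition enters in a pair of them, so their results are not independent of each other. In the comparisons with sated brains AttC, Mtk and PGRP-SB1 passed the filter through their sated samples. In refed against fasted brains pirk passed it through its fasted samples. The counts of members called are therefore a description.

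Separation of the samples was also counted for all 33 members, tested or not, beside the genes with a count. In refed against fasted brains 1 member (pll) was higher in every refed sample, against 5.78% of genes, and 6 (PGRP-LB, PGRP-LF, pirk, cact, Dif and Mtk) were lower in every one, against 4.17%. In sated against fasted brains 4 members (PGRP-SB1, Myd88, Mtk and Dro) were higher in every sated sample, against 5.37% of genes, and 2 (pirk and Dredd) were lower, also against 5.37%. In refed against sated brains 2 members (pirk and pll) were higher in every refed sample, against 7.15%, and 8 were lower, against 6.39%. These 8 were PGRP-SB1, Dif and the effectors AttC, DptA, DptB, CecA1, Mtk and Dro. For CecA1 the lowest sated and the highest refed sample both rested on 1 count, so their separation reflects library size. For Mtk a refed and a fasted sample both held 7 counts, so their separation rests partly on library size. For DptA the lowest sated sample held 3 counts, the floor, against 2 in the highest refed sample. For pirk the sated samples held 2, 3 and 2 counts, all at or under the floor.

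**Figure D2:**
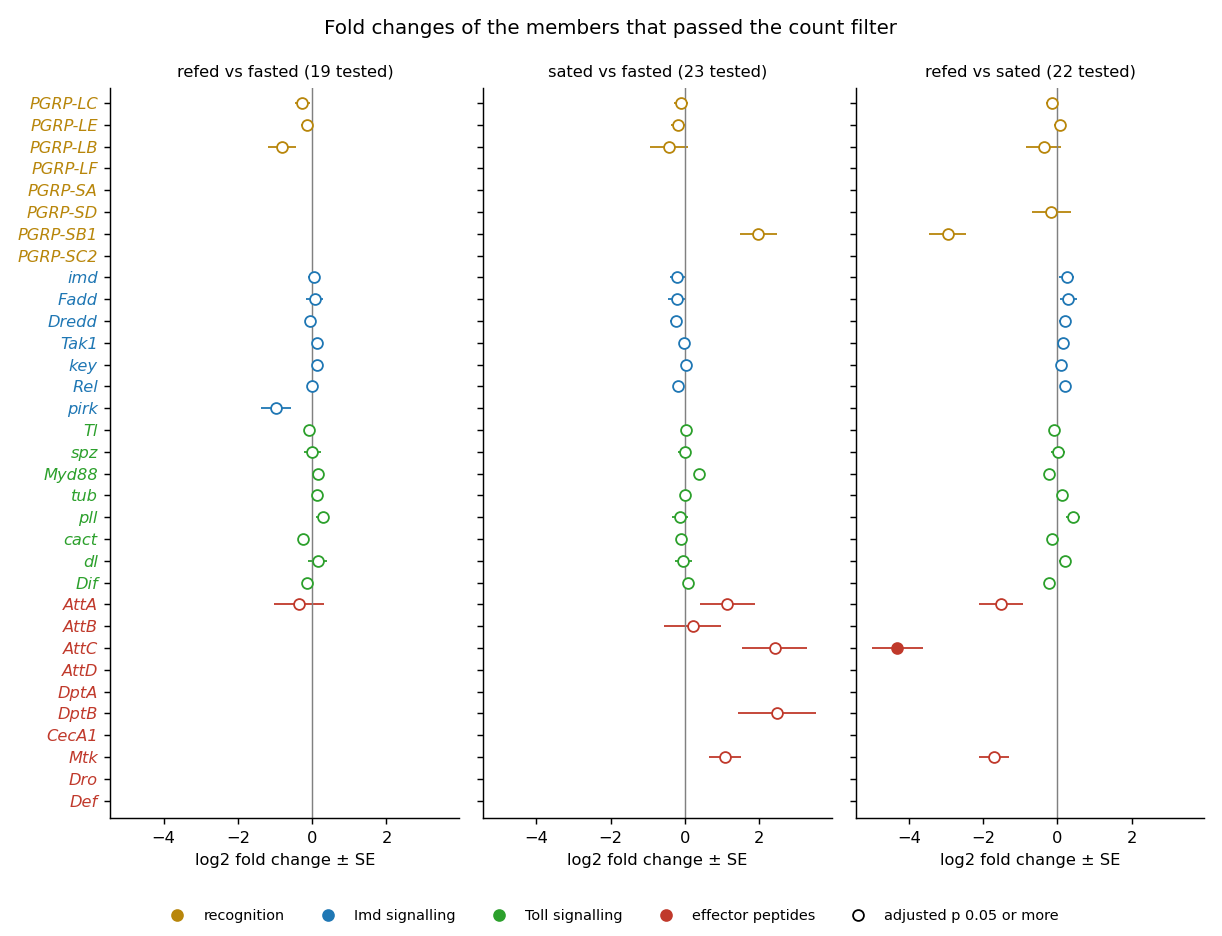
Log2 fold change with its standard error (edgeR) for each member that passed the count filter, in the comparisons of refed with fasted, sated with fasted and refed with sated brains, coloured by role; filled points have an adjusted p under 0.05. AttC in refed against sated brains (-4.32) is the filled point, and the Imd and Toll signalling genes other than pirk cluster near 0.

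Among the recognition genes, the Imd receptors PGRP-LE and PGRP-LC had highest-to-lowest ratios over the 9 samples of 1.69 and 1.83, against 25.3 for the secreted amidase PGRP-SB1, whose lowest samples held 2 and 3 counts. PGRP-LE, the cytosolic receptor of the Imd pathway, had the highest level per length of the 8 at 5.49 RPKM. Its levels were 12.3, 11.1 and 10.6 CPM in refed, 12.5, 8.56 and 10.98 CPM in sated and 12.2, 9.81 and 14.5 CPM in fasted brains, and the conditions overlapped. PGRP-LC, the membrane receptor of the same pathway, had means of 10.3 CPM in refed, 11.4 CPM in sated and 12.4 CPM in fasted brains, with edgeR adjusted p-values of 0.753 or more.

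PGRP-SB1 encodes an amidase that cleaves peptidoglycan and is itself induced through Imd. It lies on chromosome arm 3L, from 16727299 to 16727989 on the minus strand in the BDGP6 build. It had 1.04, 0.263 and 0.411 CPM in refed, 2.69, 4.19 and 6.64 CPM in sated and 1.85, 1.20 and 0.512 CPM in fasted brains. The sated samples all lay above every fasted and every refed sample. These levels rested on 8, 2 and 3 counts in refed, 18, 24 and 52 in sated and 10, 6 and 4 in fasted samples. In refed against sated brains the edgeR estimate was -2.96 on the log2 scale, with a standard error (SE) of 0.50 and an adjusted p of 0.0504, just short of the threshold. In sated against fasted brains it was 1.98 (SE 0.51, adjusted p = 0.199). With DESeq2 the corresponding adjusted p-values were 0.00365 and 0.0477.

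PGRP-LB, an amidase that dampens Imd by degrading peptidoglycan, and PGRP-LF, a membrane protein that inhibits PGRP-LC, had their highest means in fasted brains. PGRP-LB had 1.30, 1.58 and 1.10 CPM in refed, 0.597, 2.10 and 2.43 CPM in sated and 2.59, 2.80 and 1.66 CPM in fasted brains. The refed and fasted samples did not overlap, but the log2 change of -0.81 (SE 0.38) had an adjusted p of 0.705 in edgeR. PGRP-LF had 0.519, 1.05 and 0.274 CPM in refed, 1.19, 0.524 and 1.53 CPM in sated and 1.85, 3.61 and 1.28 CPM in fasted brains, too few counts to be tested. Its refed and fasted samples did not overlap either. For both genes fasted replicate 2, the library with the largest opposite-strand share, was the highest sample, and opposite-strand reads were 3.37 and 2.83 times the own-strand reads. The part of these reads in the difference was not tested. PGRP-SA and PGRP-SD, circulating receptors of the Toll pathway, and PGRP-SC2, an amidase, had means over the 9 samples of 0.496, 1.27 and 0.223 CPM.

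Transcripts of the core Imd signalling genes were present in every sample, at levels that differed little between conditions. The highest level per length belonged to key, which encodes the regulatory subunit of the IkappaB kinase complex, at 22.0 RPKM. Its levels were 33.7, 36.7 and 28.2 CPM in refed, 29.9, 32.8 and 29.6 CPM in sated and 24.6, 33.4 and 31.9 CPM in fasted brains, and the conditions overlapped. Tak1, the kinase upstream of that complex, followed at 16.6 RPKM, and Rel, which encodes Relish itself, at 11.2 RPKM. The adaptors imd and Fadd and the caspase Dredd stood at 5.17, 3.73 and 5.31 RPKM.

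Mean Rel levels were 41.4 CPM in refed, 35.5 CPM in sated and 40.8 CPM in fasted brains. The change in refed against sated brains was 0.21 on the log2 scale (SE 0.12, edgeR adjusted p = 0.548). Of the 6 core genes, only Dredd had a pair of conditions without overlap, at 7.16 to 8.96 CPM in sated and 9.23 to 9.85 CPM in fasted samples. In refed against sated brains the 6 Imd signalling genes tested were all higher in refed brains, by 0.095 to 0.29 on the log2 scale. None of them had an unadjusted p under 0.05 in edgeR.

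The exception among the Imd genes was pirk, which encodes a cytoplasmic inhibitor of PGRP signalling and was lowest in sated brains. It lies on chromosome arm 2R, from 21660967 to 21662995 on the minus strand. It had 0.778, 0.921 and 0.823 CPM in refed, 0.299, 0.524 and 0.255 CPM in sated and 2.03, 1.60 and 1.41 CPM in fasted brains. The 3 conditions did not overlap, in the order fasted, refed, sated, which is the reverse of the order of PGRP-SB1 between fasted and sated brains. These levels rested on 6, 7 and 6 counts in refed, 2, 3 and 2 in sated and 11, 8 and 11 in fasted samples. The sated counts were all at or under the floor of 3. Only refed against fasted passed the filter, through the fasted samples, so its p-value is a description. In that comparison the log2 change was -0.99 (SE 0.40), below 0.05 in edgeR only before adjustment (adjusted p = 0.705).

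The Toll signalling genes had the highest median level per length of the roles, 10.6 RPKM, and their changes were at most 0.41 on the log2 scale. Tl, the Toll receptor, had the highest level per length of all members at 32.6 RPKM. It had 171.5, 157.0 and 161.6 CPM in refed, 167.5, 177.4 and 177.2 CPM in sated and 168.2, 166.0 and 179.6 CPM in fasted brains, and the conditions overlapped. The ligand gene spz, the adaptor tub, the kinase pll and the NF-kappaB gene dl stood at 5.14, 16.1, 3.43 and 2.51 RPKM, and none of their changes had an unadjusted p under 0.05 in edgeR. The gene pll was nonetheless higher in every refed sample (7.27 to 8.55 CPM) than in any sated (4.54 to 7.02 CPM) or fasted sample (6.01 to 6.81 CPM).

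The gene cact encodes the IkappaB-type inhibitor that holds Dorsal and Dif in the cytoplasm. It had 78.7, 81.0 and 80.3 CPM in refed, 90.5, 79.1 and 92.7 CPM in sated and 90.3, 98.3 and 93.8 CPM in fasted brains. The refed samples all lay below the fasted samples, and the sated samples overlapped both. In refed against fasted brains edgeR gave a log2 change of -0.25 (SE 0.06), which did not pass the threshold after adjustment (adjusted p = 0.319).

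Dif, one of the NF-kappaB factors of the Toll pathway, had its lowest levels in refed brains. It had 98.9, 94.8 and 91.3 CPM in refed, 102.0, 112.8 and 115.1 CPM in sated and 104.5, 101.1 and 106.4 CPM in fasted brains. Every refed sample lay below every sample of the other conditions. In edgeR the log2 change was -0.15 against fasted brains (SE 0.05, adjusted p = 0.705) and -0.22 against sated brains (SE 0.06, adjusted p = 0.210). Myd88, the adaptor that links Toll to its kinase, had 16.0, 17.8 and 19.5 CPM in refed, 17.8, 20.4 and 23.2 CPM in sated and 15.9, 13.8 and 17.3 CPM in fasted brains. The sated samples lay above the fasted samples, by 0.38 on the log2 scale (SE 0.13, edgeR adjusted p = 0.377).

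**Figure D3:**
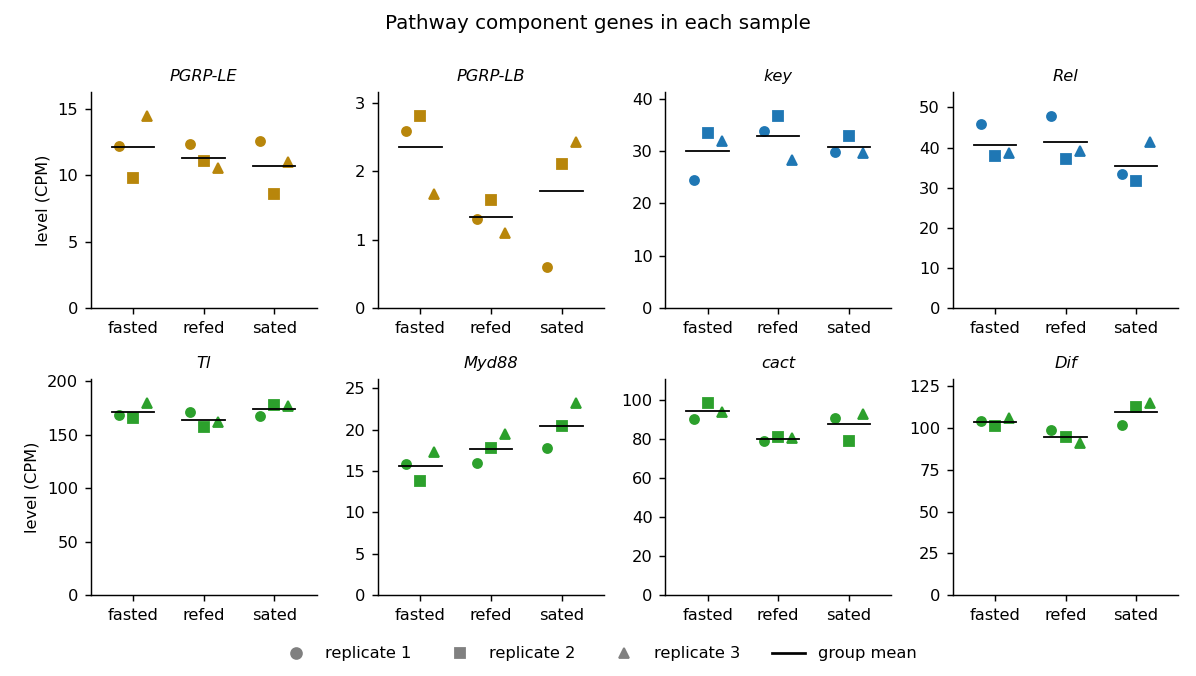
Levels in CPM of 8 pathway components in each sample, with the replicates as separate symbols and the group mean as a line; every vertical axis starts at 0. The receptor gene Tl lies between 157.0 and 179.6 CPM in all samples, while cact and Dif show refed samples below the fasted samples by small margins.

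Among the effector peptides AttC was the gene that passed the adjusted threshold. AttC encodes an attacin, a glycine-rich peptide active against Gram-negative bacteria. It lies on chromosome arm 2R, from 13393705 to 13394667 on the plus strand. It had 0.130, 0.658 and 0.823 CPM in refed, 3.88, 8.73 and 19.4 CPM in sated and 5.91, 0.200 and 0.256 CPM in fasted brains. Every sated sample lay above every refed sample, while fasted replicate 1 fell within the range of the sated samples and the other fasted samples within that of the refed samples. The underlying counts were 1, 5 and 6 in refed, 26, 50 and 152 in sated and 32, 1 and 2 in fasted samples.

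AttC was lower in refed than in sated brains by an edgeR log2 estimate of -4.32 (SE 0.69, adjusted p = 0.0473). Over the alternatives the fold change ranged from -4.74 to -3.52 and the adjusted p from 5.38e-08 to 0.208. The call was lost without sated replicate 3 (adjusted p = 0.0704), without refed replicate 1 (0.148) or without refed replicate 2 (0.169). In sated against fasted brains the estimate was 2.42 (SE 0.88, adjusted p = 0.407). Without fasted replicate 1 it was 5.42 and the adjusted p 0.171.

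AttA and AttB, a pair of closely similar attacin genes on chromosome arm 2R with 1007 bases between them, varied less. AttA had 1.56, 1.97 and 0.685 CPM in refed, 1.19, 3.14 and 7.53 CPM in sated and 3.88, 0.601 and 1.02 CPM in fasted brains, and the conditions overlapped. In refed against sated brains its edgeR log2 change was -1.52 (SE 0.59, adjusted p = 0.368). AttB had 0.778, 0.789 and 0.274 CPM in refed, 0.299, 1.75 and 3.45 CPM in sated and 3.14, 1.20 and 0.640 CPM in fasted brains. Reads shared by near-identical copies may have been lost or split, so the levels of AttA and AttB are uncertain. AttD, an attacin lacking a secretion signal, had 8 counts in all 9 samples together and is not read further.

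DptA and DptB encode diptericins, peptides induced through Imd and directed at Gram-negative bacteria, and lie on chromosome arm 2R with 1130 bases between them. DptA had 0, 2 and 2 counts in refed, 3, 6 and 59 in sated and 7, 1 and 0 in fasted samples. DptB had 0, 3 and 1 counts in refed, 6, 10 and 61 in sated and 10, 0 and 1 in fasted samples. For both genes every sated sample lay above every refed sample, and fasted replicate 1 lay within the sated range. The filter kept DptB in sated against fasted brains, where edgeR gave 2.48 on the log2 scale (SE 1.05, adjusted p = 0.490).

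Dro, which encodes drosocin and lies 647 bases from AttA, had 1, 0 and 0 counts in refed, 6, 7 and 28 in sated and 2, 0 and 2 in fasted samples. The sated samples lay above all others, and refed and fasted samples were at or under the floor of 3 counts. CecA1, a cecropin gene, had 1, 1 and 0 counts in refed, 2, 1 and 7 in sated and 2, 0 and 0 in fasted samples. Def, which encodes a defensin against Gram-positive bacteria, had 9 counts in all and 64 on the opposite strand.

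Mtk, which encodes the antifungal and antibacterial metchnikowin, was the effector with the highest level per length, 6.05 RPKM, and the most even one. It lies on chromosome arm 2R, from 15408846 to 15409113 on the plus strand. It had 0.908, 0.789 and 0.823 CPM in refed, 1.94, 2.27 and 3.96 CPM in sated and 1.48, 1.40 and 1.02 CPM in fasted brains. In CPM the 3 conditions did not overlap, in the order sated, fasted, refed. These levels rested on 7, 6 and 6 counts in refed, 13, 13 and 31 in sated and 8, 7 and 8 in fasted samples. The counts of refed and fasted samples thus met at 7, and their separation rests partly on library size. The edgeR log2 change of Mtk was -1.71 in refed against sated brains (SE 0.40, adjusted p = 0.124) and 1.09 in sated against fasted brains (SE 0.43, adjusted p = 0.451). Refed against fasted did not pass the filter, and with no filter edgeR gave -0.60 (adjusted p = 0.813).

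**Figure D4:**
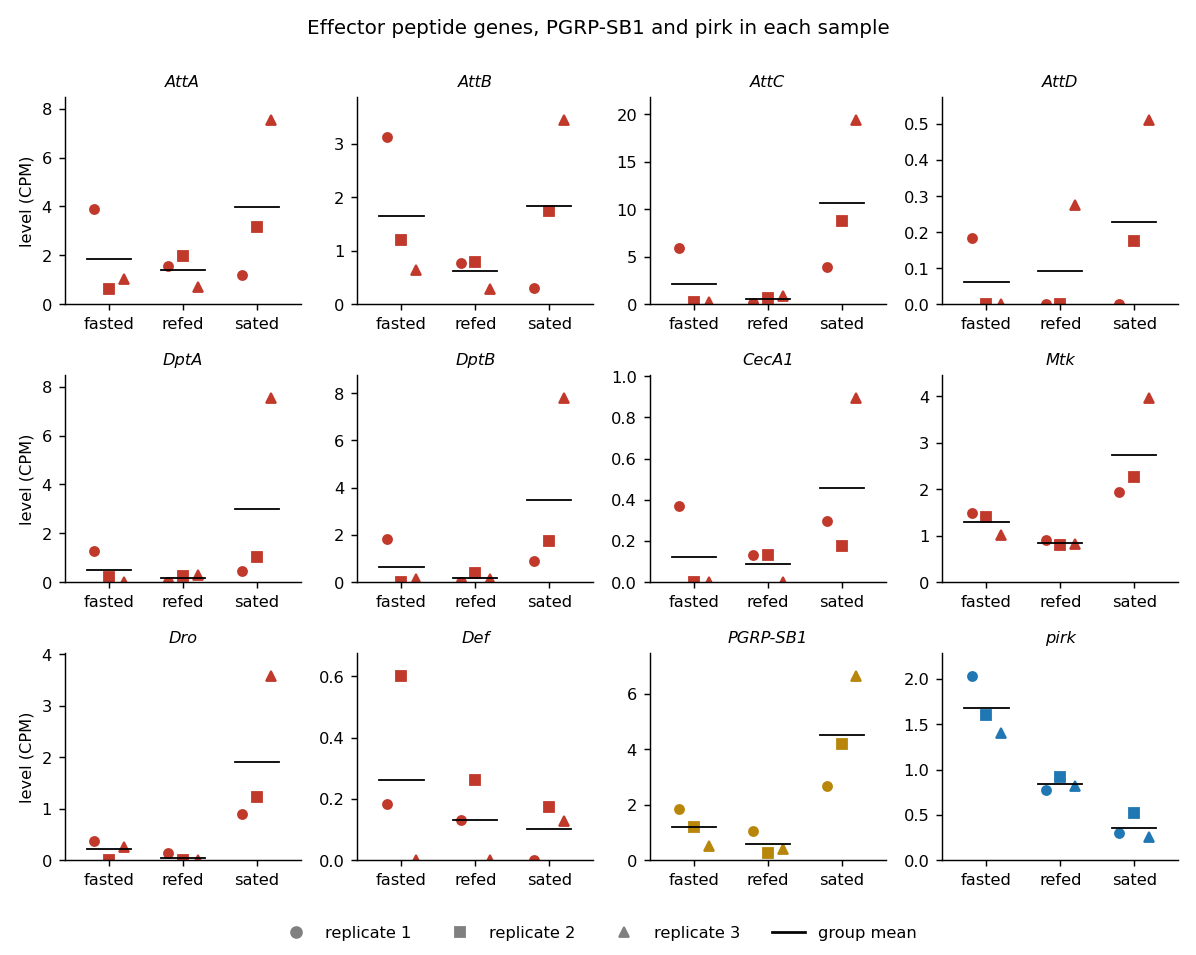
Levels in CPM of the 10 effector peptide genes, PGRP-SB1 and pirk in each sample, with replicates as separate symbols and the group mean as a line; vertical axes start at 0 and differ in scale. Sated replicate 3 (triangle) is the highest sample for 9 of the 10 effectors, and the pirk samples lie in the order fasted, refed, sated from high to low.

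In 6 of the 10 effector genes (5 without CecA1), and in 2 of the 23 components, every refed sample lay below every sated sample, against 6.39% of all genes with a count. Of these, DptA was separated by 3 counts, the floor, in sated replicate 1 against at most 2 in refed samples. The count filter kept AttA, AttC and Mtk in that comparison and removed the other effectors. With no filter, the edgeR test called AttC, DptA, DptB, Dro and PGRP-SB1, 5 of the 33 members, against 0.828% of the genes then tested. Their adjusted p-values were 6.31e-05, 0.0301, 0.00814, 0.00762 and 0.00137, respectively. The refed samples held 4, 4 and 1 counts of DptA, DptB and Dro in all, so no fold is given for them. DESeq2 called AttC, DptB and PGRP-SB1.

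Members of the effector set resembled each other in which sample was high. Sated replicate 3 was the highest library for 9 of the 10 effectors, 90.0%, while it was the highest for 10.2% of the genes tested in at least 1 comparison and for 4 of the 23 components. It carried 55.3% of all AttC counts, 73.8% of DptA, 66.3% of DptB, 60.9% of Dro, 39.6% of AttA and 31.3% of Mtk counts. The excess over the other sated samples differed among the peptides, with 59 counts against 3 and 6 for DptA, 152 against 26 and 50 for AttC and 31 against 13 and 13 for Mtk. Fasted replicate 1 stood above the other fasted samples for AttC, with 32 counts against 1 and 2, and for DptB, with 10 against 0 and 1, but had 8 Mtk counts against 7 and 8. AttC made up 31.7% to 42.7% of effector counts in these 4 samples, the sated ones and fasted replicate 1, and 3.45% to 25.0% in the other samples.

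Sated brains had the highest mean for 9 of the 10 effectors, 90.0%, against 33.8% of all genes tested, and refed brains the lowest for 8, 80.0%, against 33.2%. The 9 include AttD and CecA1, at 8 and 14 counts in all samples, and the sated means rest partly on replicate 3. For AttB, sated replicates 1 and 2 had 0.299 and 1.75 CPM, against a fasted mean of 1.66 CPM. Among the components sated brains had the highest mean for 30.4% and refed brains the lowest for 39.1%. Without sated replicate 3 the sated effector sums of 9.85 and 20.4 CPM still lay above the highest refed sum of 5.26 CPM. With no filter, so that every member entered, the median log2 change in refed against sated brains was -1.96 over the 10 effectors, 0.03 over the 23 components and -0.02 over all genes. In sated against fasted brains these medians were 1.82, -0.04 and -0.02, and in refed against fasted brains -1.03, -0.03 and -0.02. Changes fitted to so few counts depend on the prior count. AttA was the effector that passed the filter in refed against fasted brains, at -0.36 (edgeR adjusted p = 0.926), and its direction turned to 0.73 without fasted replicate 1, to 0.14 with a covariate for the opposite-strand share and to 0.46 without the 3 libraries over 20% opposite strand.

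The effectors were also more variable than the components. Their median level per length was 2.02 RPKM, against 1.38 RPKM for recognition, 5.31 RPKM for Imd signalling, 10.6 RPKM for Toll signalling and 10.5 RPKM for all genes tested. The biological coefficient of variation, the spread between samples of a condition beyond counting noise, had a median of 0.75 for the effectors, 0.100 for the components and 0.0468 for all genes tested. Among the components, the recognition genes had a median of 0.368. The coefficient was 1.32 for DptA, 1.29 for DptB and 1.09 for AttC but 0.187 for Mtk. Among the components it was 0.451 for PGRP-SB1 and highest, at 0.817, for PGRP-SC2, which had 14 counts in all. Low counts make this estimate imprecise for the scarcer genes, and 6 of the 10 effectors had a sample without a count.

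**Figure D5:**
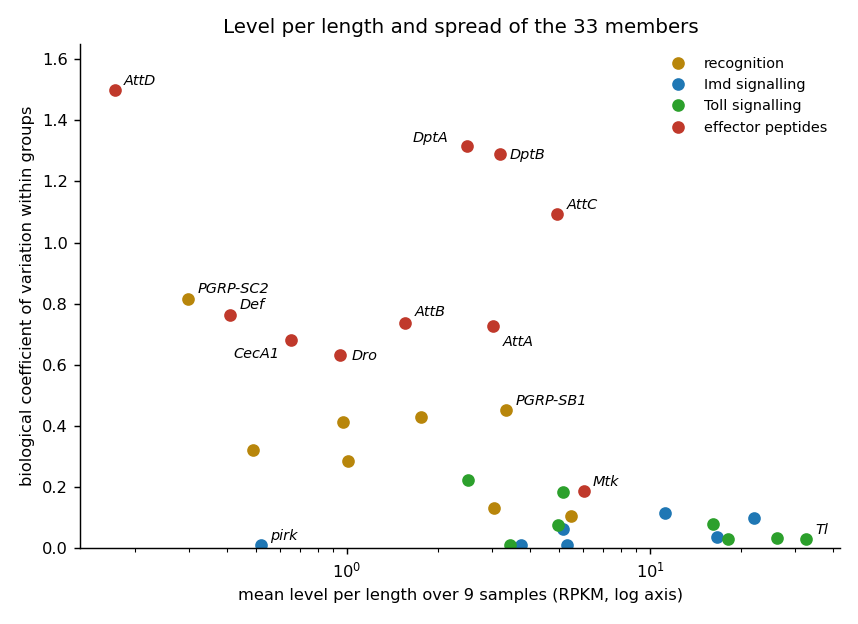
Biological coefficient of variation within conditions against mean level per length over the 9 samples (RPKM, log axis) for the 33 members, coloured by role. DptA, DptB and AttC combine levels above 2 RPKM with coefficients over 1, whereas Toll and Imd signalling genes reach at most 0.222.

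Other genes of these pathways were examined as lists. Of the further Imd genes 12 were tested in each comparison and of the further Toll genes 14, and none passed the adjusted threshold. Among the Imd genes with an unadjusted p under 0.05, the largest change was in casp, which encodes the Imd inhibitor Caspar, at -0.17 in refed against fasted brains (edgeR adjusted p = 0.705). Among the Toll genes with such a p it was in Toll-6, a Toll family receptor, at -0.15 in refed against sated brains (edgeR adjusted p = 0.341). Of 25 further effector genes between 5 and 7 could be tested, and BomBc2, a Toll-induced Bomanin, had a log2 change of 0.77 in refed against fasted brains (edgeR adjusted p = 0.652). Among 14 genes of JAK-STAT signalling and stress, the stress gene TotA had 0.53 on that scale in sated against fasted brains (edgeR adjusted p = 0.503). None of the further effector and JAK-STAT genes tested passed the adjusted threshold in any of the 3 comparisons.

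Markers of tissues that make these peptides were read beside them. The 9 fat body markers summed to 1178 to 1688 CPM in refed, 1910 to 2651 CPM in sated and 1463 to 1715 CPM in fasted brains. Almost all of this was apolpp and Apoltp, which encode lipoproteins, and the other 7 summed to 1.45 to 2.98 CPM in any sample, with Lsp1alpha and Fbp2 at 0 in every sample. apolpp had 1455, 1201 and 995.1 CPM in refed, 2146, 1708 and 2385 CPM in sated and 1483, 1354 and 1235 CPM in fasted brains. It was thus higher in every sated sample and highest in sated replicate 3, and its log2 change in refed against sated brains was -0.78 (edgeR adjusted p = 0.0514). The other fat body markers did not show this separation. Apoltp had 180.5 to 229.6 CPM in refed, 198.7 to 264.2 CPM in sated and 214.9 to 230.6 CPM in fasted brains. The remaining 7 summed to 1.45 to 2.98 CPM in refed and 2.17 to 2.97 CPM in sated brains.

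Haemocyte markers summed to 340.8 to 396.7 CPM in refed, 368.5 to 449.0 CPM in sated and 325.8 to 383.1 CPM in fasted brains. Hml was highest in sated replicate 3 at 172.9 CPM, with means of 106.7 CPM in refed, 144.3 CPM in sated and 96.2 CPM in fasted brains. Pxn had the same order, with means of 240.9, 245.1 and 230.1 CPM in refed, sated and fasted brains, as had eater at 1.44, 1.91 and 0.910 CPM. NimC1, at 5.07, 5.50 and 5.39 CPM, was also highest in sated brains, and He was at 0 in the refed and fasted samples. NimC4, at 17.1, 16.0 and 16.1 CPM, and Sr-CI, at 3.53, 4.57 and 4.63 CPM, were not highest in sated brains. Retinal markers were also higher in sated brains, at 1977 to 2149 CPM against 1470 to 1688 CPM in refed brains, and Arr1 and trpl passed the edgeR threshold there with adjusted p-values of 0.0477 and 0.0473. The part of these tissues in the effector levels was not tested.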

How the data were processed

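The files deposited by the authors hold whole, unnormalized read counts per gene from STAR, unstranded and for each strand. The submitters' notes also name SAMtools 1.4, HTSeq, DESeq2 1.18.0 and build BDGP6. The gene-strand count was used. Symbols came from a gene name table and positions from Ensembl release 115 (BDGP6), which holds 17215 of the 17489 identifiers.

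Each pair of conditions was fitted on its own 6 samples with edgeR 4.0.16 in R 4.3.3 (filterByExpr, TMM, quasi-likelihood test, Benjamini-Hochberg adjustment over all genes tested, threshold 0.05). Levels are CPM with TMM over all 9 samples. The test was checked on simulated counts, with 100 genes changed 2-fold and 100 changed 4-fold. In refed against fasted, sated against fasted and refed against sated, edgeR made 177, 188 and 197 calls, of which 16 each were false. With the replicate number as a block, 18, 35 and 33 calls were false. Alternatives were a fit of all 9 samples, DESeq2 1.42.0, RLE, no filter, a minimum of 10 counts throughout, the replicate number as a block, unstranded counts, robust empirical Bayes, the opposite-strand share as a covariate and each sample left out. Leaving out the 3 libraries over 20% opposite strand was chosen after seeing the data. Promoter and protein sequences were not analysed here.

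Samples were grouped by the sample records. Nothing given there says that samples came from separately reared flies, so p-values measure the spread between these samples. The members, lists and naming rule were chosen with earlier results of these data known. Every value is given for members with an unadjusted p under 0.05 in a comparison, or with samples that do not overlap and a log2 fold change of 0.5 or more, and for the highest level per length of each role. AttB, PGRP-LC, Rel, Dredd and pll were added after their values were seen.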

Additional observations from a re-analysis of the deposited data

Results flagged for a closer look

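AttC met the rule for a difference between conditions. The refed against sated comparison was fitted on the samples of these conditions alone, without the fasted samples. The change of AttC there came to -4.32 on the log2 scale in 3 against 3 samples (adjusted p = 0.0473, edgeR). AttC passed the count filter through its sated samples, and the call was lost under 6 of 15 alternatives. Every refed sample was lower than every sated sample. With 3 samples in each condition, no sample was tested as an outlier.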

How the results depend on the processing

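The 13 results on single members were those with an unadjusted p under 0.05 in edgeR, and AttC in refed against sated brains alone was called. Of 197 values for them, 182 stayed on the same side of the threshold, mostly by staying uncalled, 6 lost a call, 9 gained one and none reversed. Those lost were AttC in refed against sated brains with all 9 samples in one fit (adjusted p = 0.0950), robust empirical Bayes (0.208), the opposite-strand covariate (0.0525) and 3 samples left out; the filter of 10 counts in every sample removed AttC. PGRP-SB1 was called in that comparison under 5 of 15 alternatives, with adjusted p-values from 0.00137 to 0.182. Members called there numbered 3 with DESeq2, 5 with no filter, 2 with the unstranded count, 0 with 10 counts in every sample, 0 with the covariate, and 0 to 1 with a sample left out, against 1. In sated against fasted brains they numbered 1 with DESeq2 (PGRP-SB1) and 5 without the 3 libraries over 20% opposite strand, against 0. Those 5 were AttC, AttA, DptA, DptB and PGRP-SB1, and that fit kept 1 fasted sample, assumed to vary like the sated ones. In refed against fasted brains 0 members were called under every alternative run. The cause of these differences was not tested.

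All genes called in refed against fasted brains numbered 10, and 30 with DESeq2, 31 with no filter, 20 unstranded, 6 with the covariate and 2 to 264 with a sample left out (264 without fasted replicate 3). In sated against fasted brains they numbered 24, and 110 with DESeq2, 75 with no filter, 55 unstranded, 65 with robust empirical Bayes, 65 with the covariate, 5 to 30 with a sample left out and 204 without the 3 libraries. In refed against sated brains they numbered 16, and 51 with DESeq2, 121 with no filter, 7 with 10 counts in every sample, 53 with all 9 samples, 41 unstranded, 34 with robust empirical Bayes and 2 to 75 with a sample left out.

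Samples with the same replicate number did not deviate together in every pair (correlations of -0.108 to 0.394), so the numbers were not taken as pairs; 2, 4 and 0 of 6 samples correlated best with their own number in the 3 comparisons. With the replicate number as a block, 6, 72 and 11 genes were called in refed against fasted, sated against fasted and refed against sated brains, and 0, 0 and 1 members.

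Depth limits the effectors most: 3 of the 10 had under 30 counts in all 9 samples together, and 5 could not be tested in any comparison.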

Other observations

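The following values were chosen after they were seen and carry no test. TotC and TotM, stress-induced Turandot genes, were found almost only in sated replicate 1, at 2.39 and 2.09 CPM, against at most 0.185 CPM in any other sample. SPH93, a serine protease homologue, stood at 3.45 CPM in sated replicate 3 and at most 0.401 CPM elsewhere. The Bomanin genes BomS1 and BomBc1 were also highest in sated replicate 3, at 1.92 and 1.66 CPM.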
